A study of Mus musculus with 94 samples.

Results

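L1ME elements are single genomic copies of old LINE-1 (L1) retrotransposons, and their RNA was described here in the cortex and hippocampus of trisomic and wild-type mice. The members were all elements of the deposited L1 table whose name begins with L1ME, apart from 6 copies that were left out (L1MEd_dup2089, L1ME3Cz_dup549, L1MEi_dup274, L1ME3Cz_dup944, L1MEc_dup4826 and L1MEg_dup958). The members were otherwise chosen by name alone. The 6 copies left out took 8.91% of L1 counts in cortex and 8.95% in hippocampus, more than all members together (6.74% and 8.09%). In all, 20425 of the 430083 elements in the table were members, and they belonged to 27 of its 133 subfamilies.

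L1 elements copy themselves through an RNA that is reverse transcribed into new genomic DNA, and only full-length young copies can still do this. In the naming of repeats, the letter M stands for families that spread in early mammals, and L1ME is among the oldest of them. Its copies are mostly short, diverged fragments that code for no working protein. Many such fragments lie in introns or exons of genes, so that a read on one can come from a longer host transcript as well as from the element itself. Which of these gave the counts below was not tested.

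The mice were males of 3 to 4 months from Ts65Dn mothers (B6EiC4Sn.BLiA-Ts(1716)65Dn/DnJ) and B6C3F1/OlaHsd hybrid fathers. Ts65Dn (TS) mice carry an extra segment with genes orthologous to human chromosome 21, and wild-type (WT) littermates served as controls. The reverse transcriptase inhibitor lamivudine was given in the drinking water at 3 mg/kg to treated mice (WT-t and TS-t), and the non-treated mice (WT-nt and TS-nt) received none. Treatment lasted 4 months by the study's account, which does not say whether the age above is that at its start or its end. Total RNA of bulk tissue was sequenced in 94 libraries. The cortex gave 48 of them (9 from WT-nt mice, 17 from WT-t, 9 from TS-nt, 13 from TS-t) and the hippocampus 46 (8, 17, 8 and 13), so that 46 mice had a library of each tissue. Animal labels of all non-treated mice begin with 20, while those of treated mice begin with 18, 19 or 20. In bulk tissue, fewer cells of a type and less RNA per cell cannot be told apart. Markers of the tissues were not analysed here, since the table holds no genes.

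The study lists 4 members by position. The first bases of L1ME3A_dup48 and L1ME1_dup2108 are shown because both are described at length below, the former for its difference between tissues and the latter for having the smallest p-value of all members between hippocampus groups. Each line gives the + strand of GRCm38, from GENCODE transcript sequences, with 40 bases before the element in lower case and the first 200 bases of the element in capitals. The window of L1ME3A_dup48 is chr1:57041604-57041843 and that of L1ME1_dup2108 is chr7:109047182-109047421.
L1ME3A_dup48: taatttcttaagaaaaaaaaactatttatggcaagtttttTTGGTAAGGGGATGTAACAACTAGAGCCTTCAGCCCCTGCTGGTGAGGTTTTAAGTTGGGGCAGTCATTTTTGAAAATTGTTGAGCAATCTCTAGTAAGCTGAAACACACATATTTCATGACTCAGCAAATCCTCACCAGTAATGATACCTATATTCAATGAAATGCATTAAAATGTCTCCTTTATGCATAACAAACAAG
L1ME1_dup2108: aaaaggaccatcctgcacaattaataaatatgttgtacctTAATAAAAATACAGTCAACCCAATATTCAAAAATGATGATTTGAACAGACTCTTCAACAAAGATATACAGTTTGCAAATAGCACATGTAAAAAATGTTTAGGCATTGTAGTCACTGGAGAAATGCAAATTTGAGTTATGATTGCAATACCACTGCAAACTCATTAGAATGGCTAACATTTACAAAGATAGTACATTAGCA
L1ME3A_dup48 is 408 bases long (chr1:57041644-57042051, + strand), and its G and C bases make up 38.7% of it. It lies whole within an exon of the noncoding gene 9130024F11Rik, on the same strand. L1ME1_dup2108 is 550 bases long (chr7:109047222-109047771, + strand, 33.5% G and C). It lies on the other strand of Ric3, a chaperone of nicotinic acetylcholine receptors, within an exon of a transcript that retains an intron.

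The depth of a cortex library ranged from 186545 to 1165192 L1 counts, and that of a hippocampus library from 178454 to 403378. L1ME members received 12847 to 52247 of these in cortex, with a median of 21482.5, and 16518 to 29320 in hippocampus, with a median of 20984. On the first principal component of their tissue, 8 cortex libraries (4 WT-t, 2 TS-t, 1 TS-nt and 1 WT-nt) sat over 3 median absolute deviations away from its median, as no hippocampus library did. These are called far libraries below. Their L1ME share of L1 counts was 5.97% ± 1.54 (SD), against 6.89% ± 0.463 in the 40 remaining cortex libraries.

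As a share of all L1 counts of a library, L1ME members took 6.74% ± 0.807 in cortex (SD, n = 48, range 3.44% to 8.12%) and 8.09% ± 0.792 in hippocampus (SD, n = 46, range 6.57% to 9.70%). The share was higher in the hippocampus of all 46 mice with both tissues, by 1.35 percentage points on average, although the ranges of the tissues overlapped and 20 hippocampus libraries lay above every cortex library. In the 38 mice without a far library the share was higher in hippocampus in 38, by 1.17 points. It was higher in 7 of 7 mice with labels beginning with 18, in 12 of 12 with 19 and in 27 of 27 with 20. Without the 10 most abundant members of each tissue, the share was 5.28% in cortex and 5.74% in hippocampus, and it was higher in hippocampus in 39 of 46 mice. With the 6 left-out elements put back, the share was higher in hippocampus in most mice but higher in cortex in several. Among the latter were WT-t replicate 1 (32.2% in cortex and 21.9% in hippocampus) and WT-t replicate 2 (28.6% and 20.5%). TS-t replicate 2 (27.5% and 20.4%) and TS-t replicate 7 (14.8% and 13.7%) were others. The 46 of 46 above thus holds only with these 6 copies left out. Tissue and library preparation cannot be told apart, since the labels do not say in which order the libraries were made.

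Among the cortex groups the share was 6.35% ± 1.12 in WT-nt (n = 9), 6.80% ± 0.686 in WT-t (n = 17), 7.18% ± 0.438 in TS-nt (n = 9) and 6.62% ± 0.8285 in TS-t (n = 13). The lowest WT-nt library, at 3.44%, is a far library, and the remaining WT-nt libraries were between 6.38% and 7.17%. In hippocampus the share was 7.92% ± 0.487 in WT-nt (n = 8), 8.23% ± 0.744 in WT-t (n = 17), 8.23% ± 1.00 in TS-nt (n = 8) and 7.90% ± 0.887 in TS-t (n = 13). All groups of a tissue overlapped. Within cortex TS-t, the 4 libraries with labels beginning with 19 had 5.98% ± 0.151 and the 8 with labels beginning with 20 had 7.15% ± 0.465, without overlap. The part of the label start in the group values was not tested.

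**Figure D1:**
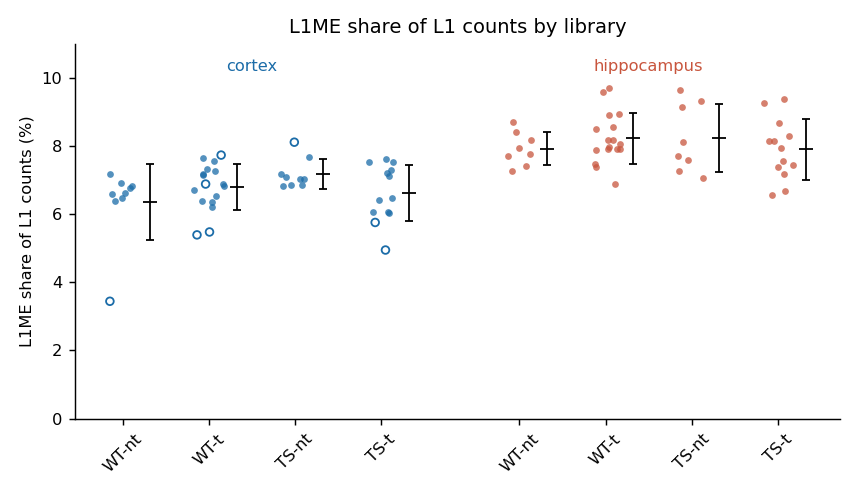
L1ME share of the L1 counts of each library, in percent (y axis), by group and tissue. Points are libraries (48 cortex, 46 hippocampus), open circles are the 8 far libraries, and black bars are the mean ± SD of the group. The hippocampus points sit between 6.57% and 9.70% and the cortex points between 3.44% and 8.12%, with overlapping groups within each tissue.

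Most members had no count in any one library. A count in at least 1 library was seen for 18112 members in cortex (88.7%) and 15172 in hippocampus (74.3%), but the median library had a count on 12.3% of members in cortex and on 9.45% in hippocampus. For all L1 elements these medians were 11.2% and 8.36%. The lowest cortex library, the far library WT-t replicate 1, had a count on 192 members (0.940%). Counts were concentrated: 83 members held 50% of all L1ME counts in cortex and 47 did in hippocampus. The filter on low counts left 305 members for testing in cortex (1.49% of all members, with 63.1% of their counts) and 280 in hippocampus (1.37%, with 72.0%). The counts of the rest enter only through the sums of their subfamilies.

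L1ME1, the largest subfamily with 2926 members, took 1.18% ± 0.239 of L1 counts in cortex (SD, n = 48) and 1.41% ± 0.209 in hippocampus (n = 46). Its group means in cortex were 1.14% in WT-nt, 1.16% in WT-t, 1.31% in TS-nt and 1.14% in TS-t, and in hippocampus 1.32%, 1.43%, 1.49% and 1.41%. The spread within a group, with an SD of 0.161 to 0.261 in cortex, was as wide as these differences. No single copy led this subfamily: its most abundant member, L1ME1_dup3091, held 10.5% of its counts in cortex and 13.2% in hippocampus.

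L1ME2 (1402 members) and L1ME2z (864 members) were lower. L1ME2 took 0.279% ± 0.0354 in cortex and 0.301% ± 0.0250 in hippocampus, with group means from 0.275% to 0.281% in cortex and from 0.289% to 0.306% in hippocampus. L1ME2z took 0.215% ± 0.0393 and 0.207% ± 0.0236, with group means from 0.206% to 0.231% in cortex and from 0.195% to 0.212% in hippocampus. L1ME2 counts were spread widely, with 65 members for 50% of them in cortex, whereas L1ME2z_dup392 alone held 23.3% of L1ME2z counts in cortex and 19.6% in hippocampus.

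The L1ME3 names cover 9 subfamilies and 4224 members. L1ME3A (1157 members) was the most abundant, at 0.558% ± 0.114 in cortex and 0.672% ± 0.106 in hippocampus. Its group means were 0.528% in WT-nt, 0.561% in WT-t, 0.596% in TS-nt and 0.546% in TS-t in cortex, and 0.656%, 0.693%, 0.682% and 0.647% in hippocampus. A single copy, L1ME3A_dup1733, held 39.3% of its counts in cortex and 52.2% in hippocampus. L1ME3 (804 members) followed with 0.228% in cortex and 0.245% in hippocampus, then L1ME3G (606 members) with 0.175% and 0.178%, and L1ME3B (444 members) with 0.107% and 0.130%. The remaining 5 (L1ME3C, L1ME3Cz, L1ME3D, L1ME3E and L1ME3F, with 154 to 525 members each) took from 0.0390% (L1ME3E) to 0.0847% (L1ME3Cz) in cortex and from 0.0442% (L1ME3C) to 0.0941% (L1ME3D) in hippocampus. Their counts were also led by single copies in places, with L1ME3C_dup40 at 47.2% of L1ME3C counts in cortex and 50.1% in hippocampus.

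L1ME4a (905 members) had the most counts per copy after L1MEg2, at 3.84 counts per member and library in cortex and 5.19 in hippocampus, against 1.11 and 1.04 over all members. It took 1.05% ± 0.188 of L1 counts in cortex and 1.81% ± 0.287 in hippocampus. Group means in cortex were 0.951% in WT-nt, 1.08% in WT-t, 1.16% in TS-nt and 1.01% in TS-t, and in hippocampus 1.81%, 1.89%, 1.83% and 1.70%. L1ME4b (1025 members) took 0.309% ± 0.0530 in cortex and 0.370% ± 0.0411 in hippocampus, and L1ME4c (538 members) took 0.184% ± 0.0489 and 0.220% ± 0.0436. L1ME5 (63 members) was the least abundant of all 27, at 0.103% of L1ME counts in cortex and 0.0766% in hippocampus, and its counts per library reached at most 73 in cortex and 37 in hippocampus. Its group means in hippocampus were 0.00436% of L1 counts in WT-nt, 0.00581% in WT-t, 0.00777% in TS-nt and 0.00683% in TS-t, with SDs between 0.00143 and 0.00371.

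Names with a letter after L1ME cover 11 subfamilies and 8478 members. L1MEg (1869 members) led them, at 0.735% ± 0.301 in cortex and 0.608% ± 0.0660 in hippocampus. Its cortex group means were 0.616% ± 0.0895 in WT-nt, 0.795% ± 0.398 in WT-t, 0.684% ± 0.0842 in TS-nt and 0.776% ± 0.337 in TS-t, so that the spread was widest in the treated groups. The cortex group medians were closer, at 0.603% in WT-nt, 0.643% in WT-t, 0.685% in TS-nt and 0.633% in TS-t. In hippocampus the group means were between 0.580% and 0.628%. L1MEd (1713 members) took 0.412% ± 0.0551 in cortex and 0.458% ± 0.0389 in hippocampus. L1MEc, with 2623 members, took 0.376% ± 0.0480 and 0.382% ± 0.0374, and its counts were the most widely spread, with 155 members for 50% of them in cortex.

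L1MEg2 is a contrast to L1MEc: it has 65 members, but took 0.321% ± 0.107 of L1 counts in cortex and 0.484% ± 0.141 in hippocampus, and L1MEg2_dup31 alone held 93.2% of its counts in cortex and 94.4% in hippocampus. The L1MEg2 share is therefore close to the level of 1 copy. Its group means were 0.300% in WT-nt, 0.337% in WT-t, 0.361% in TS-nt and 0.288% in TS-t in cortex, and 0.454%, 0.498%, 0.547% and 0.444% in hippocampus. L1MEf (1483 members) took 0.191% and 0.179% in cortex and hippocampus, and L1MEb (193 members) 0.0444% and 0.0479%. L1MEi (195 members) took 0.0243% and 0.0237%. The smallest were L1MEj (91 members, 0.0135% and 0.0175%), L1MEg1 (64 members, 0.0105% and 0.0084%), L1MEa (97 members, 0.0096% and 0.0070%) and L1MEh (85 members, 0.0086% and 0.0067%). Each of these 4 had a cortex library without any count, as did L1ME3E, L1MEb and L1ME5. In L1MEj, a single copy (L1MEj_dup165) held 38.8% of counts in cortex and 57.1% in hippocampus.

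The clearest contrast in the data was that between tissues. Of the 27 L1ME subfamilies, 20 differed between hippocampus and cortex in the 46 mice with both libraries, 13 of them higher in hippocampus and 7 higher in cortex (edgeR's quasi-likelihood test with the mouse as a block, Benjamini-Hochberg adjusted p below 0.1 over all L1 subfamilies). Of all 133 L1 subfamilies 69.2% were called, 33.8% higher in hippocampus and 35.3% lower, so that calls were common throughout. The median log2 change of L1ME subfamilies was 0.08, and that of all subfamilies was 0.00. L1ME4a changed most, by 0.77 ± 0.05 (log2 change ± SE, adjusted p = 1.21e-17): its share was higher in hippocampus in 46 of 46 mice, and 41 hippocampus libraries lay above every cortex library. L1MEg2 followed with 0.64 ± 0.10 (adjusted p = 7.2e-07, 41 of 46 mice).

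L1ME1 was higher in hippocampus by 0.25 ± 0.04 (40 of 46 mice), L1ME3A by 0.27 ± 0.04 (39 mice) and L1ME4b by 0.24 ± 0.04 (40 mice). The other subfamilies called higher in hippocampus were L1MEj (0.38), L1ME3D (0.30), L1ME3B (0.26), L1ME4c (0.25), L1ME3E (0.22), L1MEd (0.13), L1ME3 (0.09) and L1ME2 (0.09). Those called lower in hippocampus were L1MEa (-0.53 ± 0.17), L1MEh (-0.41 ± 0.14), L1MEg1 (-0.33 ± 0.15, adjusted p = 0.05005), L1ME3C (-0.26 ± 0.07), L1MEg (-0.21 ± 0.07), L1MEf (-0.12 ± 0.03) and L1ME2z (-0.07 ± 0.03), of which L1MEa, L1MEh and L1MEg1 are among the 5 least abundant. L1MEg was higher in cortex in 40 of 46 mice. The 7 without a call were L1ME5 (-0.21 ± 0.16), L1ME3Cz (-0.08 ± 0.05), L1MEi (-0.05 ± 0.09), L1ME3F (-0.01 ± 0.06), L1MEc (0.01 ± 0.03), L1ME3G (0.01 ± 0.04) and L1MEb (0.08 ± 0.11), with edgeR adjusted p-values between 0.114 (L1ME3Cz) and 0.913 (L1ME3F).

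By name, L1ME4 and L1ME5 together took 1.55% of L1 counts in cortex and 2.41% in hippocampus, higher in hippocampus in 46 of 46 mice. For the younger mammalian families this was so in 40 mice (L1MA and L1MB, 8.25% and 9.07%) and in 45 (L1MC and L1MD, 7.85% and 8.76%), whereas the mouse-specific L1Md family was higher in hippocampus in 2 mice (13.2% in cortex, 11.3% in hippocampus).

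**Figure D2:**
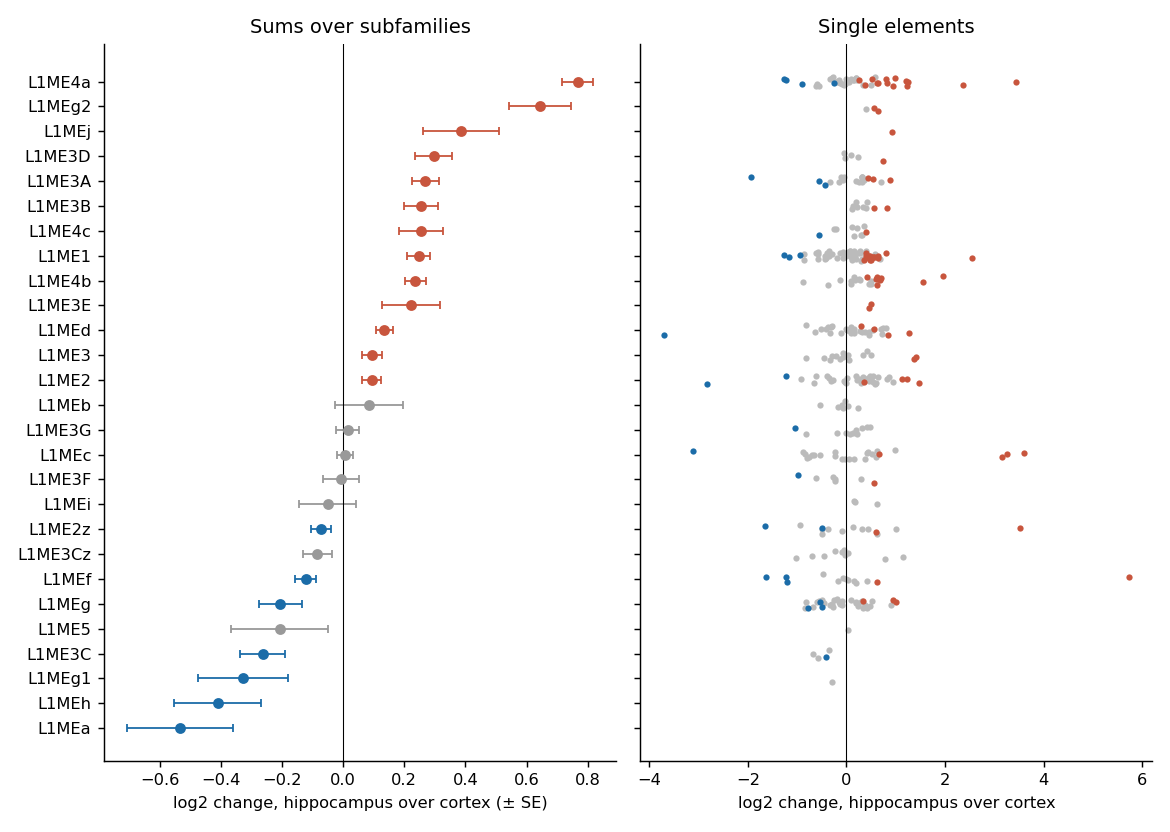
Log2 change of hippocampus over cortex (x axes) for the sums of the 27 L1ME subfamilies (left, ± SE) and for the single members that passed the filter (right, 1 point each), from edgeR fits to 46 mice with the mouse as a block. Red is called higher and blue called lower in hippocampus (adjusted p below 0.1), and grey is not called. L1ME4a and L1MEg2 stand at the top of the sums, and most subfamilies hold members that differ in sign.

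Within single groups of mice the L1ME subfamilies called were 12 in WT-nt (48.9% of all subfamilies), 12 in WT-t (47.4%), 3 in TS-nt (12%) and 14 in TS-t (42.9%). An F test of whether the change between tissues differed among the 4 groups called 0 of 133 subfamilies (smallest edgeR adjusted p = 0.956, and 1 subfamily, not of L1ME, below an unadjusted 0.05). L1ME4a was called in each group, with log2 changes of 0.96 ± 0.12 in WT-nt, 0.75 ± 0.08 in WT-t, 0.67 ± 0.11 in TS-nt and 0.70 ± 0.09 in TS-t.

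For some subfamilies the call rested on the most abundant copy. With that copy taken out of each sum, 16 of 27 L1ME subfamilies were called, 11 higher in hippocampus and 5 lower, against 59.2% of all 130 subfamilies tested. The log2 change of L1ME4a was then 0.31 ± 0.05 and that of L1MEg2 0.40 ± 0.12, and both were still called. L1ME3A (-0.03), L1MEj (-0.20) and L1ME2z (0.04) turned their direction and were no longer called, and neither were L1ME3D (0.13), L1ME3E (0.10) and L1MEg (-0.04). L1ME1 (0.25), L1ME4b (0.23) and L1ME3B (0.29) moved little. L1MEc (0.07 ± 0.02) and L1ME3G (0.10 ± 0.03), not called with all copies, were then called higher in hippocampus. In the 38 mice without a far library, 22 L1ME subfamilies were called, 13 of them higher and 9 lower in hippocampus. Calls were common among all L1 subfamilies too, with 92 of 133 called in the fit to all 46 mice.

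At the level of single copies, 98 of 389 tested members differed between tissues in edgeR's test, 72 higher in hippocampus and 26 lower. Over all 7388 elements tested 23.1% were called, 10.8% higher and 12.3% lower. The filter kept elements with enough counts in 1 tissue alone, so that for such elements the test was not independent of the filter. The median log2 change was 0.14 over the tested members and -0.11 over all tested elements. The split depended on the scaling: with DESeq2's size factors it was 57 higher and 40 lower (97 members), against 8.73% and 17.2% of all elements. With library totals alone it was 96 and 18 (114 members), against 15% and 8.96%, and without the mice that had a far library 72 and 48 (120 members), against 10.5% and 18.4%. Members higher in hippocampus changed by a median of 0.64 on the log2 scale and 20 of 72 by more than 2-fold. Those higher in cortex changed by a median of 1.10, and 14 of 26 by more than 2-fold. These sizes were taken over members alone, so that they cannot be set against those of all elements. An F test of a difference among the 4 groups called 0 members (5 below an unadjusted 0.05), and within single groups 18 members were called in WT-nt (2.46% of all elements), 48 in WT-t (9.26%), 13 in TS-nt (2.82%) and 27 in TS-t (4.87%).

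The called copies were spread over 20 subfamilies, L1ME1 and L1ME4a with 18 each. In L1ME4b all 9 called copies of 22 tested were higher in hippocampus, while L1ME1 had 15 higher and 3 lower of 57 tested, L1ME4a had 14 and 4 of 45, L1ME3A had 3 and 3 of 20, and L1MEf had 2 and 3 of 13. L1ME3Cz, L1MEb, L1MEi, L1ME5 and L1MEg1 had 0 called copies of 10, 7, 3, 1 and 1 tested (edgeR), and no copy of L1MEa or L1MEh had enough counts to be tested.

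The following levels are CPM, that is counts scaled to a common total per library, after TMM scaling over the 92 paired libraries. That total covers only the elements that passed the filter on low counts, which held 56.2% of L1 counts in this fit. CPM are therefore not shares of all L1 counts. L1ME4a_dup1041 ranged from 151 to 1704 CPM in cortex, with a median of 898, and from 1274 to 13026 in hippocampus, with a median of 9965. It was higher in the hippocampus of 46 of 46 mice, and 45 hippocampus libraries lay above every cortex library. The exception was the hippocampus library of TS-t replicate 13, at 1274 CPM. The log2 change was 3.45 ± 0.11, and this 1 copy held 32.8% of L1ME4a counts in hippocampus. A second copy, L1ME4a_dup616, ranged from 0 to 337 CPM in cortex, with a median of 152, and from 180 to 1317 in hippocampus, with a median of 753. It was higher in 46 of 46 mice (log2 change 2.37 ± 0.15), and its lowest hippocampus library was again TS-t replicate 13. In contrast, L1ME4a_dup1263 was among the 5 most abundant members of both tissues at nearly the same level, with medians of 2450 and 2441 CPM (log2 change -0.04 ± 0.10, edgeR adjusted p = 0.82). Copies of 1 subfamily thus ranged from a large difference to none that was detected.

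L1MEf_dup1804 was close to absent from cortex, with 0 to 5 counts per library (median 0), and had 0 to 38 counts in hippocampus (median 12). In the hippocampus of TS-t replicate 13 it had no count either. Its fitted log2 change of 5.74 ± 0.47 depends on the prior count of the fit, since most cortex libraries are at 0. In the fits of single tissues it passed the filter in hippocampus only, so that its test between tissues was not independent of the filter. In the cortex direction, L1MEc_dup2518 fell from a median of 92.5 CPM in cortex to 10.7 in hippocampus (log2 change -3.11 ± 0.35, higher in cortex in 43 of 46 mice). The same limit applies to L1MEc_dup2518, which passed the filter in cortex only. L1ME3A_dup48, the first of the sequences above, ranged from 0 to 700 CPM in cortex, with a median of 337, and from 0 to 282 in hippocampus, with a median of 95.1. It was higher in cortex in 45 of 46 mice (log2 change -1.94 ± 0.22), and 31 cortex libraries lay above every hippocampus library.

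Most of the abundant copies differed less. L1MEg2_dup31, the copy that makes up nearly all of L1MEg2, had medians of 5613 CPM in cortex and 7287 in hippocampus (log2 change 0.55 ± 0.08, higher in 41 of 46 mice). Its lowest cortex library, at 831 CPM, is the far library of WT-nt. L1ME3A_dup1733 had medians of 4137 and 5625 (0.55 ± 0.09, 42 mice) and L1ME1_dup3091 of 2354 and 2982 (0.50 ± 0.10, 38 mice). L1MEg_dup1158 was the only one of the 5 most abundant cortex copies that was called lower in hippocampus, with medians of 2819 and 1790 (-0.77 ± 0.10, higher in cortex in 43 of 46 mice). It reached 17773, 16301, 12458 and 7923 CPM in 4 treated cortex libraries and 6035 in 1 WT-nt library, while all other paired cortex libraries were at 3913 or below. Of these 5, all but the first are far libraries. Adjusted p-values of the copies called in this and the preceding paragraphs were at most 1.98e-08 in edgeR's test, apart from L1ME1_dup3091 (4.77e-05). Those of L1MEf_dup1804 and L1MEc_dup2518 are left out here, since each passed the filter of 1 tissue alone.

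**Figure D3:**
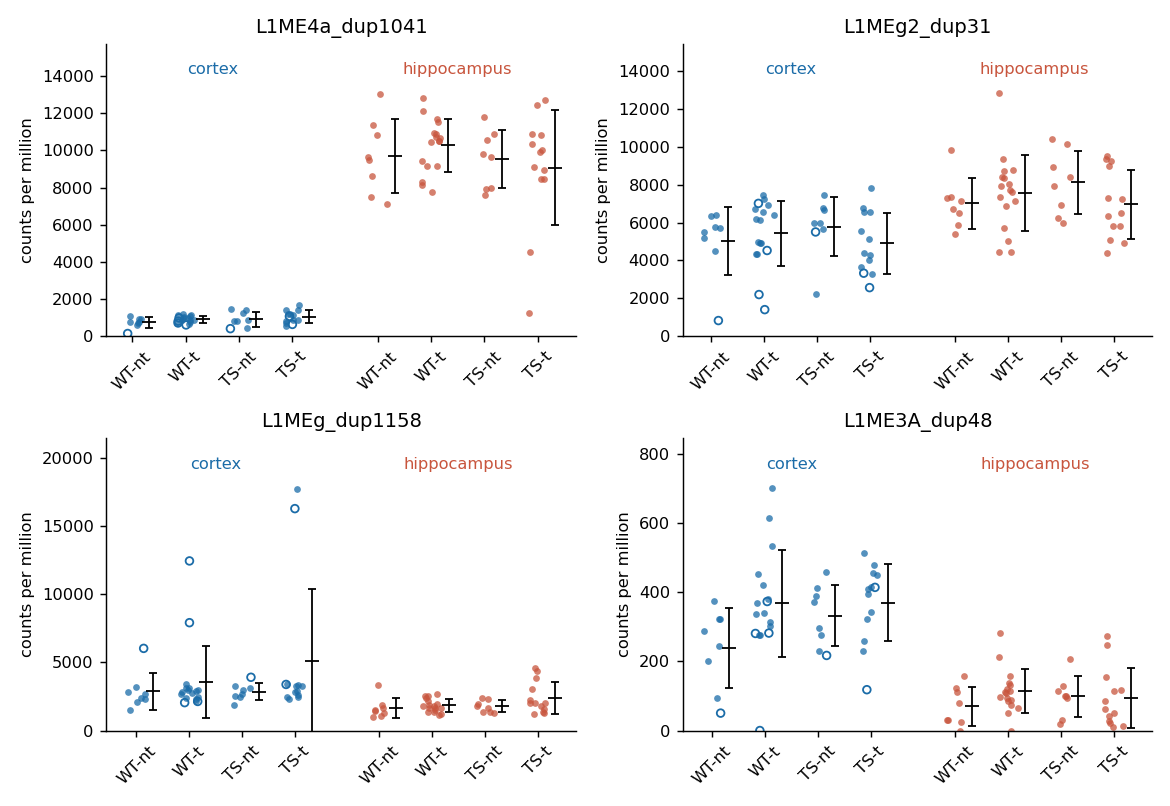
CPM (y axes) for 4 single members in the 92 libraries of the 46 mice with both tissues. CPM are counts scaled with TMM factors to a common total per library, taken over the elements that passed the filter on low counts. Points are libraries, open circles far libraries, and black bars the mean ± SD of a group, cut at 0 where they pass it. L1ME4a_dup1041 and L1MEg2_dup31 are higher in hippocampus, L1ME3A_dup48 and L1MEg_dup1158 in cortex, and the groups within a tissue overlap for each of them.

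Between genotypes and treatments, the sums of the L1ME subfamilies showed no called difference in either tissue. Each tissue was fitted once over its 4 groups with edgeR's quasi-likelihood test. TS-nt and TS-t were each set against the same WT-nt libraries, so that these comparisons share their controls. In cortex 0 of 27 L1ME subfamilies were called in TS-nt vs. WT-nt (0.752% of all 133 subfamilies), and 0 in the other comparisons and the interaction of genotype and treatment (0% of all). In hippocampus 0 of 27 were called in TS-nt vs. WT-nt (1.52% of the 132 tested). The same held for TS-t against WT-nt (0.758%), for TS-t against TS-nt (0.758%) and for the others (0%). DESeq2 called 2 in cortex TS-nt vs. WT-nt (15.8% of all), L1ME3 and L1ME4a, both higher in TS-nt, and 2 in the cortex interaction (12% of all), L1ME4a and L1MEd, and none elsewhere.

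An unadjusted p below 0.05 was reached in cortex by 2 L1ME subfamilies in TS-nt vs. WT-nt (22.6% of all), 1 for TS-t against WT-nt (7.52%), 1 for TS-t against TS-nt (3.01%), 2 for WT-t against WT-nt (16.5%), 1 for TS-t against WT-t (6.02%) and 5 in the interaction (22.6%). L1ME4a was among them in TS-nt vs. WT-nt (log2 change 0.26 ± 0.11, edgeR adjusted p = 0.149), in WT-t vs. WT-nt (0.23 ± 0.10, adjusted p = 0.267) and in the interaction (-0.38 ± 0.14, adjusted p = 0.193). L1ME3 was among them in TS-nt vs. WT-nt (0.18 ± 0.07, adjusted p = 0.140). The call in this comparison turned on single controls. Without cortex WT-nt replicate 5, L1ME3 and L1ME4a were both called, and without cortex WT-nt replicate 4, L1ME3 was. The far library WT-nt replicate 1 had the lowest L1ME4a share of its group, at 0.356% of L1 counts, with the next at 0.907%. Group medians lay closer together, at 1.04% in WT-nt and 1.09% in TS-nt for L1ME4a. For L1ME3 they were 0.237% and 0.251%. L1MEd was higher in WT-t than in WT-nt by 0.14 ± 0.06 and lower in TS-t than in WT-t by 0.14 ± 0.05 on the log2 scale, with adjusted p-values of 0.267 and 0.379. In hippocampus only L1ME5 reached an unadjusted p below 0.05, in TS-nt vs. WT-nt (0.80 ± 0.33, adjusted p = 0.384) and in TS-t vs. WT-nt (0.64 ± 0.30, adjusted p = 0.445), from the 5 to 37 counts per library given by this small subfamily.

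The median log2 change of the 27 subfamilies in cortex was 0.10 in TS-nt, 0.02 in TS-t and 0.08 in WT-t, each against WT-nt, -0.08 for TS-t against TS-nt and -0.03 for TS-t against WT-t, where all 133 subfamilies had medians between -0.02 and 0.01. In hippocampus the L1ME medians were between -0.02 and 0.05 in these comparisons and those of all subfamilies between -0.00 and 0.02.

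**Figure D4:**
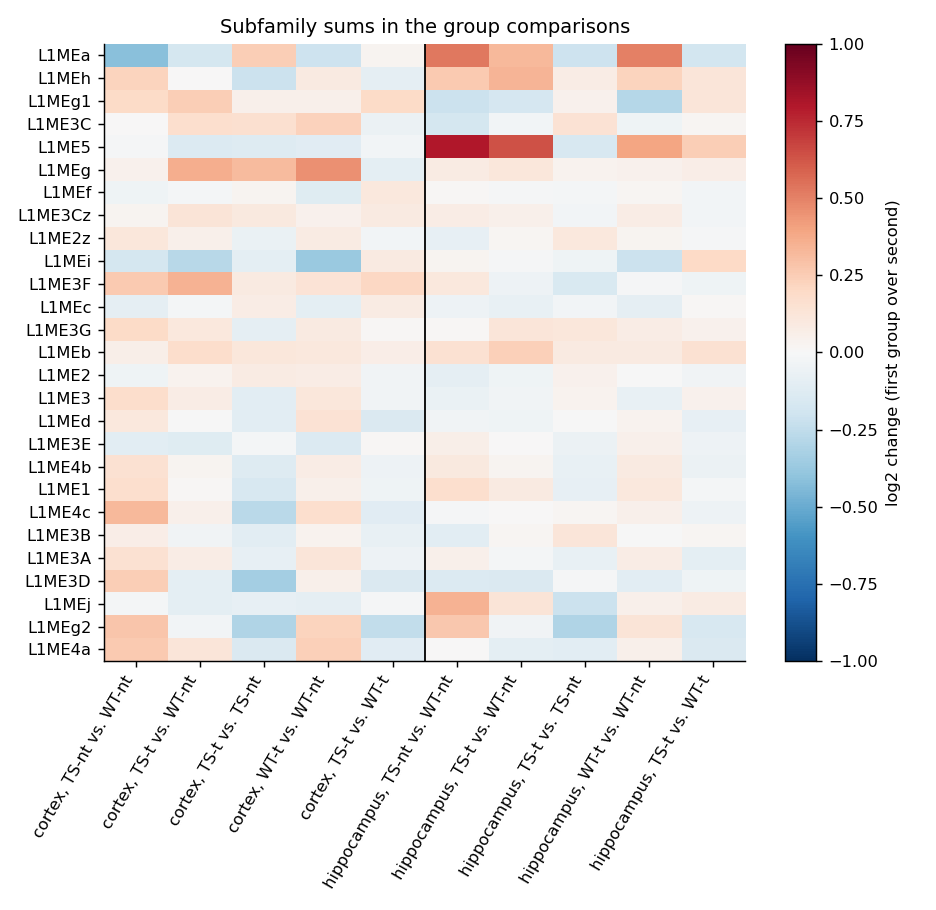
Log2 change of the first group over the second (colour, scale from -1 to 1) for the sums of the 27 L1ME subfamilies (rows, ordered by their change between tissues) in 5 group comparisons of each tissue (columns). The strongest colour, L1ME5 in hippocampus at 0.80 in TS-nt vs. WT-nt, belongs to the subfamily with the fewest counts, and no cell was called at an adjusted p below 0.1.

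At the level of single copies in cortex, 0 of 305 tested members were called in any of the 6 comparisons, as were 0% of the 5416 elements tested. The number with an unadjusted p below 0.05 was 4 in TS-nt vs. WT-nt (1.51% of all elements), 5 for TS-t against WT-nt (1.75%), 3 for TS-t against TS-nt (0.905%), 5 for WT-t against WT-nt (1.59%), 4 for TS-t against WT-t (1.96%) and 1 in the interaction (1.11%). In hippocampus 0 of 280 were called, where 0.0708% of the 4238 elements were called in TS-nt vs. WT-nt, 0.0472% for TS-t against WT-nt and 0% in the others. Between 12 and 16 members had an unadjusted p below 0.05 in each hippocampus comparison, or 4.29% to 5.71% of those tested, against 3.11% to 4.25% of all elements. DESeq2 called 0 members in each comparison apart from TS-t vs. WT-nt in hippocampus, where it called 4 (L1ME1_dup2108, L1ME1_dup2333, L1MEc_dup369 and L1MEg2_dup44), against 0.425% of all elements.

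In cortex, the copies with the smallest p-value in a comparison were L1ME4a_dup941, L1ME4a_dup1437, L1MEg_dup1158 and L1MEd_dup1923. From here on, CPM are scaled within the fit of each tissue alone. They are not comparable with the paired values above or between tissues. L1ME4a_dup1437 had a mean of 203 ± 148 CPM in TS-t (SD, n = 13) and of 77.0 ± 45.4 in WT-nt (n = 9), 94.6 ± 49.3 in WT-t (n = 17) and 142 ± 57.4 in TS-nt (n = 9), and the groups overlapped. Its log2 change was 1.37 ± 0.42 in TS-t vs. WT-nt and 1.09 ± 0.34 in TS-t vs. WT-t, each with an edgeR adjusted p of 0.999. L1ME4a_dup941 had 692 ± 309 CPM in TS-nt and 425 ± 113 in WT-nt (log2 change 0.70 ± 0.31, adjusted p = 0.999). L1MEd_dup1923 was low in WT-nt, at 32.9 ± 32.3 CPM, against 81.1 ± 54.3 in WT-t, 81.8 ± 31.1 in TS-nt and 60.5 ± 48.3 in TS-t (interaction -1.75 ± 0.74, adjusted p = 1.00 after rounding). L1MEg_dup1158 had a log2 change of 0.88 ± 0.37 in TS-t vs. TS-nt, which was -0.03 when only treated mice with labels beginning with 20 were used. Its high treated libraries have other label starts.

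In hippocampus, the smallest p-values in 3 of the comparisons belonged to L1ME1_dup2108, the copy within Ric3 whose first bases are shown above. Its level was between 346 and 694 CPM in WT-nt (median 398, n = 8), between 289 and 935 in WT-t (median 649, n = 17), between 299 and 1331 in TS-nt (median 739, n = 8) and between 437 and 1065 in TS-t (median 684, n = 13). WT-nt was the lowest group by its median, with overlap with the others: 5 of 8 TS-nt and 6 of 13 TS-t libraries lay above every WT-nt library, and 1 TS-nt library lay below all of them. The log2 change was 0.73 ± 0.22 in TS-nt vs. WT-nt (edgeR adjusted p = 0.621), 0.67 ± 0.20 in TS-t vs. WT-nt (adjusted p = 0.403) and 0.51 ± 0.19 in WT-t vs. WT-nt. DESeq2 gave an adjusted p of 0.0994 for TS-t vs. WT-nt. In cortex its log2 change was 0.36 ± 0.32 in TS-nt and 0.15 ± 0.29 in TS-t against WT-nt.

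L1MEg2_dup44 (chr7:89853282-89853618, - strand) lies in the exon that holds the 3' UTR of Me3, the mitochondrial malic enzyme that uses NADP, on the other strand. In hippocampus it was between 18.7 and 191 CPM in TS-t (median 90.7, n = 13), between 82.8 and 487 in WT-nt (median 185, n = 8), between 16.8 and 428 in WT-t (median 133, n = 17) and between 54.0 and 493 in TS-nt (median 156, n = 8). TS-t was the lowest group by its median, and 6 of its 13 libraries lay below every WT-nt library. The log2 change was -1.40 ± 0.42 in TS-t vs. WT-nt (edgeR adjusted p = 0.415, DESeq2 adjusted p = 0.0994) and -1.15 ± 0.36 in TS-t vs. WT-t (edgeR adjusted p = 0.629). In cortex TS-t vs. WT-nt gave -0.24 ± 0.44. L1ME3B_dup95 had 167 ± 82.3 CPM in TS-t and 70.8 ± 28.9 in TS-nt in hippocampus (log2 change 1.23 ± 0.39, edgeR adjusted p = 1.00 after rounding).

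L1ME1_dup2108 and L1MEg2_dup44 are among the 4 members that the study lists, and the study chose that list on these samples, so that their direction is not independent evidence. Of the other 2, L1ME3A_dup48 had in cortex 242 ± 117 CPM in WT-nt (n = 9), 387 ± 159 in WT-t (n = 17), 353 ± 83.5 in TS-nt (n = 9) and 388 ± 111 in TS-t (n = 13). Its log2 change was 0.55 ± 0.36 in TS-nt and 0.68 ± 0.34 in TS-t against WT-nt, each with an edgeR adjusted p of 0.999. In hippocampus it was at 75.9 ± 60.2, 122 ± 69.0, 107 ± 64.0 and 101 ± 91.4 CPM in the same order.

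L1ME3G_dup1019 (chr15:100519022-100519230, + strand) lies in an intron of Tfcp2, a transcription factor, on the other strand. It had too few counts for the fit, with 0 to 20 counts per cortex library. In cortex it was between 0 and 73.8 CPM in WT-nt (median 19.1, n = 9), between 0 and 54.4 in WT-t (median 0, n = 17), between 0 and 23.2 in TS-nt (median 11.3, n = 9) and between 0 and 9.39 in TS-t (median 0, n = 13). As the study listed this copy on these samples, its levels are a description with no test. No cortex TS-t library lay below every WT-nt library, since both groups hold libraries at 0.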

How the data were processed

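Total RNA of cortex and hippocampus was sequenced after ribosomal RNA removal with a stranded kit. The authors trimmed reads with Trimmomatic 0.38, aligned them to GRCm38 with HISAT2 2.1.0, keeping up to 5 alignments per read, and assigned reads with several alignments to single RepeatMasker elements with Telescope. The processing notes also name StringTie 2.1.3b. The deposited values are raw read counts per L1 element, without normalization. Reads shared by near-identical copies were thus split by an estimate. The numbers of mice in the methods equal the numbers of cortex libraries, while the methods also mention pooling of samples, and each library was treated as 1 mouse.

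Counts were analysed with edgeR 4.0.16 in R 4.3.3 (filterByExpr, TMM scaling, robust quasi-likelihood fits) over the whole L1 table, either per element or summed per subfamily, and p-values were Benjamini-Hochberg adjusted over all tested features with a threshold of 0.1. Groups were compared within a tissue, and tissues within the 46 mice with both, with the mouse as a block, as the animal labels pair the libraries. limma 3.58.1 and DESeq2 1.42.0 served as alternatives. The fits were tested on simulated counts. The rule for naming took the called subfamilies, the 5 largest and the 2 smallest by L1ME counts, and the rest were added so that all 27 are described. Members named in the text were the 5 most abundant of each tissue, the 3 called with the smallest adjusted p-value in each direction between tissues, the one with the smallest p-value per group comparison and the 4 that the study lists. Members and lists were chosen with earlier results of these data known. All 94 count columns matched a sample. Of the members, 14 carry a name without copy number. The 6 elements left out took 8.91% of L1 counts in cortex and 8.95% in hippocampus.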

Additional observations from a re-analysis of the deposited data

Results flagged for a closer look

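In 76 checks of groups of 4 to 10 libraries, 22 had a highest or lowest library far from the others by Dixon's criterion. Chance alone reaches it in about 1 of 20 independent groups. Only the non-treated groups (8 or 9 libraries) were checked, since WT-t (17) and TS-t (13) were too large. The checks were related measures of the same libraries, so that their number cannot be set against that rate. No explanation was weighed.

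Cortex WT-nt replicate 1, one of the far libraries, gave 10 of the 22 flagged values. It was the lowest of its group for the L1ME share (3.44%), for L1ME1 (0.465%), L1ME3A (0.186%), L1ME4a (0.356%), L1MEd (0.210%) and L1MEg2 (0.0298%) as shares of L1 counts, and for L1MEg2_dup31 (974 CPM), L1ME3A_dup1733 (1569 CPM) and L1ME1_dup3091 (424 CPM). It was the highest for L1MEg_dup1158 (7076 CPM). These CPM are on the scale of each tissue's own fit and so differ from the paired values given for the same library. Among the TS-nt cortex libraries, replicate 4 was lowest for L1MEg2 (0.115%) and its main copy L1MEg2_dup31 (2469 CPM), and the far library, replicate 1, was highest for L1MEg (0.870%).

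In hippocampus, WT-nt replicate 6 was highest for L1MEg2_dup31 (10231 CPM), L1ME1_dup3091 (4412 CPM), L1ME1 (1.64%) and L1MEg2 (0.632%). WT-nt replicate 1 was highest for L1MEg_dup1158 (3682 CPM) and WT-nt replicate 8 for L1ME3G_dup1019 (62.1 CPM). TS-nt replicate 1 was highest for L1MEg2_dup44 (493 CPM) and L1MEd (0.518%), and TS-nt replicate 2 for L1ME3G_dup1019 (28.7 CPM).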

How the results depend on the processing

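The comparison of tissues by subfamily called 19 to 21 L1ME subfamilies when 1 mouse was left out at a time (20 with all mice), and 16 to 22 under the other alternatives for all mice or those without a far library. With mice split by label start, it called 3 for labels beginning with 18 (7 mice), 16 for 19 (12 mice) and 17 for 20 (27 mice). Without the mouse as a replicate block it called 21 subfamilies (13 higher in hippocampus, 8 lower) and 110 members (82 and 28), against 20 and 98 with the block. With the block, 92 of all 133 L1 subfamilies and 1707 of all 7388 elements were called. Single members were called in numbers of 81 to 120, and the scaling moved the median log2 change of all elements from -0.11 to -0.22 with DESeq2's size factors and to 0.02 with library totals. No paired analysis was possible because the groups hold different mice, so that the comparisons of groups had no block.

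Leaving out 1 library was run per element only in hippocampus, for TS-nt and TS-t against WT-nt. There 0 members were called in 92 of 92 fits. Over all comparisons of groups, 0 members stayed the count in 76 of 100 other alternatives. The exceptions were fits that kept sparse elements, whose cause was not tested, and DESeq2. With a minimum of 10 counts in total, edgeR called in cortex 1601 members for TS-nt against WT-nt (16.6% of those tested, and 20.8% of all elements), 1895 for TS-t against WT-nt (19.6% and 25%), 748 for TS-t against TS-nt (7.74% and 6.86%), 1791 for WT-t against WT-nt (18.5% and 22.8%), 1212 for TS-t against WT-t (12.5% and 13.5%) and 900 in the interaction (9.31% and 9.05%). In hippocampus it called 1164, 1064, 1062, 996, 831 and 947 in the same order, or 11.3% to 15.9% of those tested against 10.6% to 14.5% of all elements. Without a filter it called 2094, 2626, 642, 2341, 2117 and 788 members in cortex, or 3.54% to 14.5% against 2.98% to 18.4% of all. In hippocampus these numbers became 0, 1133, 1096, 774, 1504 and 784, or 0% to 9.91% against 0% to 9.27%. DESeq2 called 4 members in hippocampus TS-t vs. WT-nt, and 2 subfamilies each in cortex TS-nt vs. WT-nt and the cortex interaction. Fits without 1 library gave 0 to 2 subfamilies in cortex TS-nt vs. WT-nt.

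Without the 10 most abundant members, the L1ME share was 5.04% in cortex WT-nt, 5.29% in WT-t, 5.59% in TS-nt and 5.21% in TS-t, and in hippocampus 5.66%, 5.80%, 5.75% and 5.70%. With the 6 left-out elements put back it was 14.03%, 16.5%, 15.1% and 15.98% in cortex and 17.4%, 16.9%, 17.5% and 16.8% in hippocampus. Some single log2 changes turned their direction: without the most abundant copy, L1ME3A (-0.0323), L1MEj (-0.196) and L1ME2z (0.0389) between tissues; with left-out elements put back, L1MEd (-0.30) and L1MEg (0.0275); with label start 18, L1ME2z (0.0236) and L1MEg1 (0.62); with 19, L1ME3E (-0.00822); and L1MEg_dup1158 in cortex TS-t vs. TS-nt (-0.0273) with treated mice of label start 20. The comparison of tissues per element with a minimum of 10 counts in total was not run. Most members did not pass the filter of the reported fits, and calls among them depended on the filter.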
